A study of Homo sapiens with 45 samples.

Results

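The levels of 10 long noncoding RNA genes were described in sarcoma cell lines: H19, MEG3, NEAT1, MALAT1, PVT1, TUG1, DLEU2, SNHG14, LINC02233 and EWSAT1, 10 of the 41582 genes in the joined tables. They were listed by name, and they were chosen by their levels across the lines and by their spread between replicates of the hairpin libraries, both already known. Values of those 2 kinds are therefore given as a description, and nothing is read from a count of called members in them. TPM, an abundance scaled for transcript length and library size, and estimated counts were summed over all transcripts of a gene.

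Long noncoding RNAs are transcripts that act as RNA, and many of them are made and processed much like messenger RNA. NEAT1 is the scaffold of nuclear bodies called paraspeckles, and MALAT1 gathers in nuclear speckles, where splicing factors are stored. H19, MEG3 and SNHG14 come from imprinted regions, in which 1 parental copy is normally active, and loss or gain of that imprint is a known feature of tumours. EWSAT1 is named for Ewing sarcoma, a tumour whose driver joins EWSR1 to a gene of the ETS factor family, most often FLI1.

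Poly(A) RNA of 45 libraries was sequenced, in 15 groups of 3. Untreated cells of 7 lines labelled Ewing sarcoma (TC71, SKES1, RDES, MHHES1, EW24, EW3 and A673) and of 6 lines labelled osteosarcoma (U2OS, SAOS2, MG63, KHOS, HOS-MNNG and G292) made up 39 libraries. The other 6 were made from A673 with sh908, a short hairpin RNA against KCNN1, which encodes a calcium-activated potassium channel: 3 without doxycycline (uninduced) and 3 with doxycycline, which switches the hairpin on (induced). All sh908 libraries share the A673 background and the hairpin, and the dose and time of doxycycline were not given in the sources used here. HOS-MNNG and KHOS are both known as derivatives of the HOS line, so they are not independent tumours. The labels do not say whether the 3 libraries of a group came from separate cultures, so p-values over libraries measure only the spread between these samples.

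Estimated counts summed to between 15974173 and 51413254 per library. Libraries of the same group correlated at Pearson r 0.963 to 0.998 over genes. KCNN1, the hairpin's target, was at 37.8, 35.3 and 17.99 TPM in uninduced replicates 1, 2 and 3, and at 10.2, 13.7 and 7.75 TPM in the induced ones. Of 7 Ewing sarcoma markers 5 did not overlap between the line means of the tumour types, among them PRKCB (55.3 to 233 TPM against at most 0.132 TPM), while CD99 and NR0B1 did. Of 7 osteosarcoma and bone-forming markers only TNFRSF11B did not overlap, and the medians of ALPL and FN1 were higher in the Ewing sarcoma lines (36.1 against 4.37 TPM and 264 against 148 TPM). ERG reached 34.8 TPM in EW3, where FLI1 was at 2.08 TPM. FLI1 was at 28.7 to 44.6 TPM in the other 6 Ewing sarcoma lines, but also at 27.7 TPM in KHOS and 20.2 TPM in HOS-MNNG. PTPRC, which marks leukocytes, stayed at or below 1.23 TPM in every line, and PECAM1, which marks endothelial cells, at or below 1.41 TPM. EPCAM, which marks epithelial cells, reached 27.5 TPM in the osteosarcoma lines, with a median of 7.93 TPM, and at most 2.17 TPM in the Ewing sarcoma lines. Replicate 3 of both sh908 groups stood apart: 24453 and 24343 genes had a count there, against 19726 to 21022 in replicates 1 and 2 and 25392 to 26096 in parental A673. Results that rest on the sh908 libraries are given with and without replicate 3 where a call or a direction changes.

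LINC02233 and EWSAT1 were the members whose line means did not overlap between the tumour types. LINC02233 (Entrez gene 109729132) lies on chromosome 4 at 159666503 to 159777784 of GRCh38.p14, and its only transcript in the tables is 358 nucleotides long. EWSAT1 (Entrez gene 283673) lies on chromosome 15 at 69080850 to 69095824, and its only transcript is 2527 nucleotides long. Both are annotated as long noncoding RNA. Their promoter windows, 250 bases before to 50 bases after the annotated start, are shown because these RNAs were high in the same tumour type, whose fusion factor is known to bind ETS sites and GGAA repeats. The sequences are from RefSeq (GRCh38.p14) and read 5′ to 3′ on the gene's strand, chr4:159777735-159778034 (minus strand) for LINC02233 and chr15:69080600-69080899 (plus strand) for EWSAT1. Capitals mark a match to ACNGGAAGT, the ETS site searched.
LINC02233 promoter: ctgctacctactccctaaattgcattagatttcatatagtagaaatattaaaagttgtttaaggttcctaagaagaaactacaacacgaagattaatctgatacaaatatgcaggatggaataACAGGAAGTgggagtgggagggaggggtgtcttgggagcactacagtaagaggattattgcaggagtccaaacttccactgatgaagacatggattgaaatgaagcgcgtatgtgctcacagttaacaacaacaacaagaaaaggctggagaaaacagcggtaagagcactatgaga
EWSAT1 promoter: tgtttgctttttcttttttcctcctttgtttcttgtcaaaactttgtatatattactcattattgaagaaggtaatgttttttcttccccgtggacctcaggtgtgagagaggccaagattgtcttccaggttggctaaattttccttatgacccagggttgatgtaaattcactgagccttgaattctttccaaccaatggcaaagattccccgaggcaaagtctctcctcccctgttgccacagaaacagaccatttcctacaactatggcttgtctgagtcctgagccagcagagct
The LINC02233 window held 1 match, ACAGGAAGT, whose first base is at -127 from the start, and the EWSAT1 window held none. On either strand, 2.30% of 34943 RefSeq promoter windows held ACNGGAAGT and 3.68% held the tandem GGAAGGAA, which neither window had. GC content was 40.3% for LINC02233 and 42.7% for EWSAT1, against a median of 58.7% over all windows. A match is only a description of the letters in this window.

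LINC02233, whose function is not known, was detected in every library of every Ewing sarcoma line. Line means ran from 12.8 TPM in RDES to 48.3 TPM in A673, with a median of 23.6 TPM. The 3 A673 libraries were at 51.5, 51.8 and 41.7 TPM, all above every library of the other untreated lines. Because the transcript is short, few reads stand behind these levels: the 7 Ewing sarcoma lines summed to 1688 estimated counts. In the osteosarcoma lines LINC02233 had 1 count in all, in U2OS replicate 2, which gave a line mean of 0.118 TPM. In each of the other 5 osteosarcoma lines a count of 0 allowed between 0.0255 and 0.0479 CPM (counts scaled to the library total). As a ratio of CPM the tumour types differed 1410-fold, with a 95% counting interval of 253 to 55722, and at least 400-fold when U2OS was left out (a floor of 3 counts over the group). Such intervals and floors cover counting error only, since without molecular identifiers several reads can stem from 1 molecule.

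EWSAT1 varied far more among the Ewing sarcoma lines. Its level was 62.4 ± 22.4 TPM (SD, n = 3) in EW3, 32.1 ± 1.55 TPM (n = 3) in MHHES1 and 23.8 ± 1.12 TPM (n = 3) in EW24. RDES lay beside EW24 at 23.4 TPM, and the libraries of these 2 lines overlapped. SKES1 at 6.02 TPM and TC71 at 3.63 TPM were lower, and A673 was the lowest, with libraries at 1.19, 0.686 and 0.960 TPM. Even so, every A673 library was above every osteosarcoma library. The osteosarcoma lines held 14 estimated counts together, against 18249 in the Ewing sarcoma lines, a 1089-fold ratio of CPM with a 95% counting interval of 649 to 1992. Without U2OS the ratio was 1442 (759 to 3153). G292, KHOS and SAOS2 had no EWSAT1 count. The order of the lines was not that of LINC02233, which was highest in the line where EWSAT1 was lowest.

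**Figure D1:**
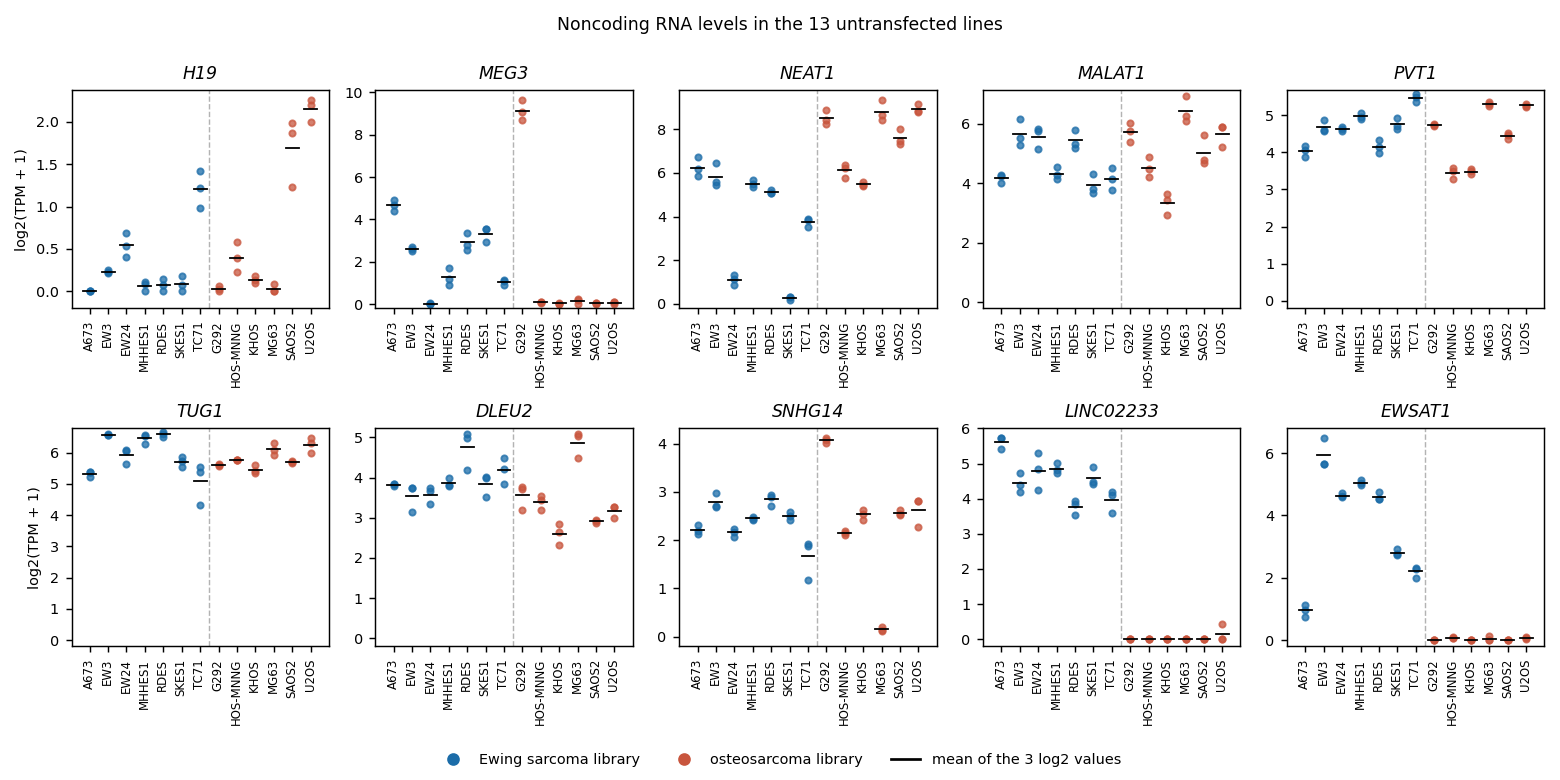
Level of each of the 10 genes in the 39 libraries of the untreated lines, as log2(TPM + 1). Points are libraries, black bars the mean of the 3 log2 values, and the dashed line separates Ewing sarcoma from osteosarcoma lines; LINC02233 and EWSAT1 separate the tumour types, whereas MEG3 stands out in G292 (578 TPM) and SNHG14 is low in MG63 (0.111 TPM).

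NEAT1 (chromosome 11, 65422798 to 65445540) was the member with the widest spread on the log2(TPM + 1) scale, with an SD of 2.70 over the 13 lines. In the osteosarcoma lines its means ran from 43.5 TPM in KHOS to 487 TPM in U2OS. In the Ewing sarcoma lines they ran from 0.206 TPM in SKES1 to 77.0 TPM in A673. U2OS and MG63 overlapped in their libraries, and so did MG63 and G292, at the top of the order. At the bottom, TC71 at 12.6 TPM, EW24 at 1.16 TPM and SKES1 did not overlap with their neighbours. The 3 SKES1 libraries were at 0.129, 0.248 and 0.242 TPM, from 65.2 estimated counts in all, in a line whose MALAT1 was at 14.7 TPM. The tumour types overlapped, since the means of A673, EW3 and MHHES1 were above that of KHOS.

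MALAT1 (chromosome 11, 65497738 to 65506516) lies next to NEAT1 in the genome but spread less. Its line means went from 9.41 TPM in KHOS to 88.3 TPM in MG63, a 9.38-fold range, with an SD of 0.91 on the log2(TPM + 1) scale. Between MG63 and G292, and between SKES1 and KHOS, neighbouring lines did not overlap, while the 10 other neighbouring pairs did. TALAM1, the antisense transcript of MALAT1, had an r of 0.875 with it over the 13 lines. Whether kallisto was run with a strand setting is not given in the sources used here, so reads of these 2 genes may not be separated. NEAT1 and MALAT1 themselves had an r of 0.4505.

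MEG3 (chromosome 14, 100826108 to 100861026), a maternally expressed RNA of the DLK1 region, was high in a single osteosarcoma line. The G292 libraries were at 790, 531 and 413 TPM, a mean of 578 TPM. In the other 5 osteosarcoma lines no library passed 0.194 TPM. The Ewing sarcoma lines ran from 0.0153 TPM in EW24 to 24.8 ± 4.501 TPM (SD, n = 3) in A673, with SKES1 second at 9.29 TPM. MEG8, another RNA of the same region, was likewise highest in G292 at 11.4 TPM and next in A673 at 0.974 TPM, and DLK1 stayed at or below 0.707 TPM in all lines. The MEG3 promoter at chr14:100825858-100826157 (plus strand, GRCh38.p14, RefSeq) is shown because this gene had the highest level and was near 0 in 6 other lines. Capitals mark the cyclic AMP response element TGACGTCA, first base at -50 from the start, a motif that CREB is known to bind and that 1.84% of windows held.
MEG3 promoter: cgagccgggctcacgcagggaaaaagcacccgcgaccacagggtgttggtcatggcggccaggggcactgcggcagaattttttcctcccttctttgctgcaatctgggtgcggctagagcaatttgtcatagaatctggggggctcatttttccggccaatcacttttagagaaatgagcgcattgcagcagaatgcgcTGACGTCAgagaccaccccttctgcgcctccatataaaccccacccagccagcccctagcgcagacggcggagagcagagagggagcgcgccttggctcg
The window has a GC content of 59.0%, close to the median of all windows, and 19 CpG pairs. These data hold no methylation values.

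H19 (chromosome 11, 1995176 to 2001266), the maternally expressed partner of IGF2, was low everywhere. U2OS reached 3.46 TPM, SAOS2 2.31 TPM and TC71 1.33 TPM, and all other lines were at or below 0.461 TPM. In A673 all 3 libraries had no count, which allowed up to 0.0317 CPM, and the 6 sh908 libraries had none either. IGF2 was highest in HOS-MNNG at 60.9 TPM and KHOS at 29.9 TPM, whose H19 levels were 0.325 and 0.0988 TPM. U2OS, the line with the most H19, came next for IGF2 at 11.7 TPM.

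SNHG14 (chromosome 15, 24823608 to 25419462) is the long transcript that runs from the SNURF-SNRPN region across small nucleolar RNA clusters to UBE3A on the opposite strand. G292 had 15.8 ± 0.608 TPM (SD, n = 3), more than any other line. MG63 had 0.0922, 0.143 and 0.0988 TPM, and every other library of the 13 lines was at or above 1.26 TPM. SNRPN showed the same 2 extremes, with 125 TPM in G292 and 2.63 TPM in MG63, and SNURF had 299.6 and 4.78 TPM there. UBE3A did not follow them closely, with an r of 0.385 with SNHG14 over the 13 lines, against 0.913 for SNRPN and 0.902 for SNURF. These r values are descriptions over 13 lines that share their sequencing and normalization.

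**Figure D2:**
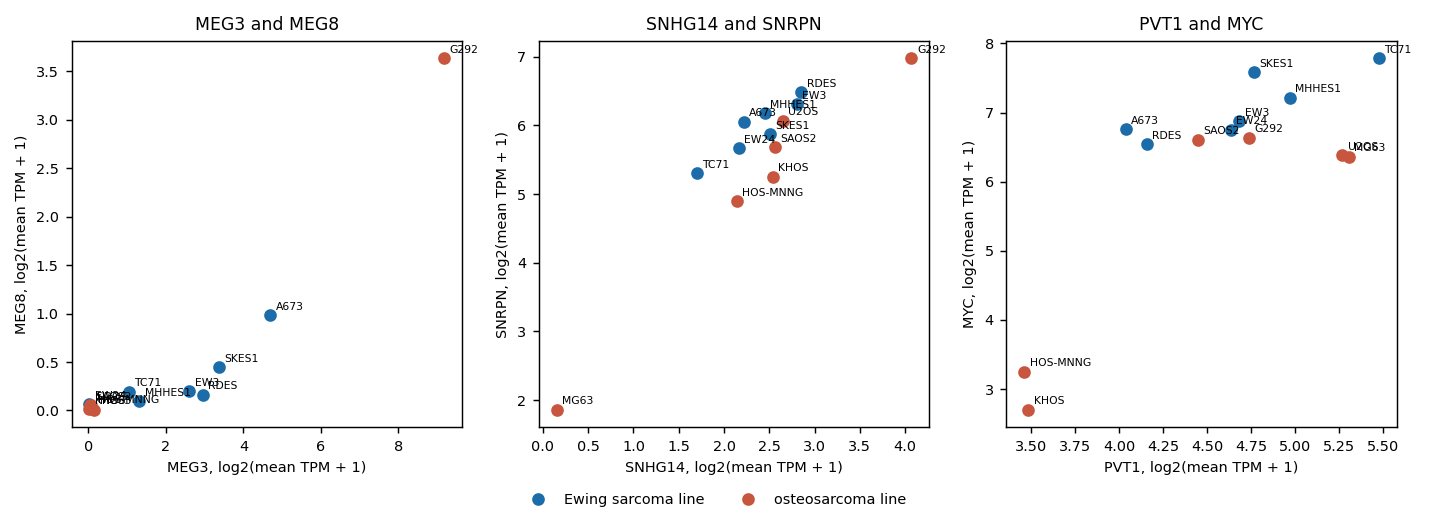
Line means of MEG3, SNHG14 and PVT1 against a nearby gene in the genome, both as log2(mean TPM + 1), with 1 point for each of the 13 lines. G292 is highest for MEG3 with MEG8 and for SNHG14 with SNRPN, MG63 is lowest for SNHG14 with SNRPN, and HOS-MNNG and KHOS are lowest for PVT1 with MYC.

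PVT1, TUG1 and DLEU2 were expressed in every line. PVT1, the noncoding neighbour of the oncogene MYC, ran from 10.02 TPM in HOS-MNNG to 43.5 TPM in TC71, and KHOS was as low as HOS-MNNG at 10.2 TPM. The same 2 lines had the lowest MYC, at 8.51 and 5.50 TPM, where all others were at or above 81.4 TPM; the r of PVT1 and MYC was 0.775. TUG1 (chromosome 22, 30969265 to 30979395), a broadly expressed RNA found in nucleus and cytoplasm, had the narrowest range, from 34.99 TPM in TC71 to 94.9 TPM in RDES, or 2.71-fold. The TC71 libraries were at 40.9, 45.1 and 18.95 TPM, so the place of TC71 as the lowest line rests on its replicate 3. RefSeq lists TUG1 as protein coding, and between 57.6% and 80.1% of its TPM in a line fell on transcripts with a coding accession. DLEU2 (chromosome 13, 49982549 to 50125541), the host of the tumour suppressor microRNAs miR-15a and miR-16-1, was highest in MG63 at 28.7 TPM and RDES at 27.02 TPM and lowest in KHOS at 5.14 TPM. A DLEU2 transcript of 855 nucleotides held 61.9% to 63.2% of the gene's TPM in the A673 libraries and 39.9% to 85.1% in those of TC71. EW24 was split, with 1 library at 64.3% and another at 0, and no library of the 10 other lines passed 22.6%. A transcript of 1793 nucleotides held on average at least 52.7% in all lines but A673 and TC71.

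Between the tumour types, edgeR gave log2 fold changes on line sums, described here with no test of a member. NEAT1 had -3.09 in the Ewing sarcoma lines relative to the osteosarcoma lines, and it ran from -3.54 to -2.82 when each line was left out in turn. The fitted values of LINC02233 (9.64) and EWSAT1 (9.77) depend on the prior count, and their count ratios are given above. MEG3 had -3.70, which became 5.77 without G292. H19 had -1.45, MALAT1 -0.61, SNHG14 -0.54, PVT1 0.10, TUG1 0.07 and DLEU2 0.07. At an adjusted p under 0.05 the count was 3 of 10, where 14.4% of the 21975 genes tested were called, and line means did not overlap for 2 of 10, where 5.59% of genes did not. Nothing is read from these counts, since the same levels chose the members.

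NEAT1 has a short polyadenylated transcript of 3756 nucleotides and a long one of 22743 nucleotides, the form that builds paraspeckles. The share of NEAT1 TPM on the long transcript tended to rise as the NEAT1 level fell in the Ewing sarcoma lines, so it is described with no test. In the osteosarcoma lines it did not follow the level. KHOS, the lowest of them at 43.5 TPM, had a share of 0.304%, and U2OS, the highest at 487 TPM, had 0.252%. It was 3.83% ± 6.12 (SD, n = 7 lines) in the Ewing sarcoma lines and 0.483% ± 0.415 (n = 6 lines) in the osteosarcoma lines. The means differed by 3.34 percentage points. The share was highest where NEAT1 was lowest: 17.5% ± 10.7 (SD, n = 3) in SKES1 and 3.53% ± 1.54 (n = 3) in EW24, which rest on 34.3 and 45.9 estimated counts of the long transcript. TC71 followed with 2.17%, then MHHES1 with 1.43% and RDES with 1.33%. MG63, at 1.297%, was the highest osteosarcoma line, and A673 (0.401%) and EW3 (0.429%) lay within the osteosarcoma range. Without SKES1 the difference was 1.06 points. As a share of estimated counts, which is not scaled for length, it was 12.2 points. Reads shared by both transcripts are divided by kallisto's model, and poly(A) libraries are known to undercount the long form.

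**Figure D3:**
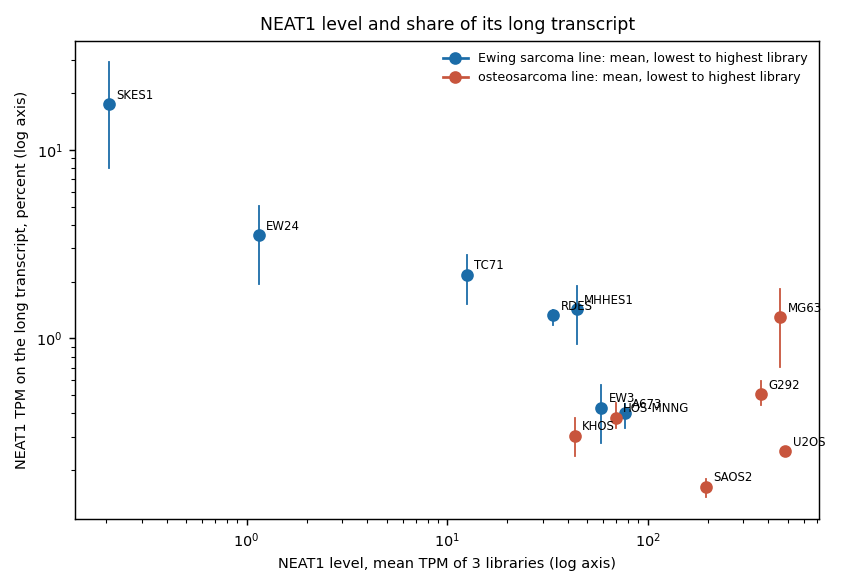
Share of NEAT1 TPM on the long transcript against the NEAT1 level, both on log axes; points are means of 3 libraries and vertical lines run from the lowest to the highest library. SKES1, with the lowest NEAT1 level (0.206 TPM), has the highest share (17.5%), and MG63 has the highest share of the osteosarcoma lines.

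The genes whose line means followed each member most closely were taken from 15707 genes reaching 5 TPM in a line, by Pearson r of log2(TPM + 1) over the 13 lines. H19 was left out, as it reached 5 TPM in no line. For LINC02233 they were HOOK1 (0.993), NDST4 (0.989) and UGT3A2 (0.984), all below 1 TPM in the osteosarcoma lines. For EWSAT1 they were GRIK5 (0.983), PROK2 (0.982) and MAPT-AS1 (0.978), each highest in EW3. For MEG3 they were SNORD113-3 (0.923), MEG8 (0.918) and IMMT (0.908), and for SNHG14 IPW (0.973), SNORD116-20 (0.931) and CBARP (0.928). SNORD113-3 and MEG8 lie in the MEG3 domain, and IPW and SNORD116-20 lie within the SNHG14 transcript region, where reads can be shared. NEAT1 was followed by ERLIN1 (0.958), QSOX1 (0.928) and RAB22A (0.920), and MALAT1 by MARCHF6 (0.925), ERVK13-1 (0.913) and PAIP1 (0.905). The closest genes were SERTAD3 (0.890) for PVT1, CAMSAP1-DT (0.925) for TUG1 and ZNF823 (0.891) for DLEU2.

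In the sh908 libraries, NEAT1 differed more between replicates than between conditions. Uninduced replicates 1, 2 and 3 were at 3.45, 2.59 and 163 TPM, and induced ones at 2.40, 2.21 and 142 TPM. Replicate 3 was thus 53.9 times the mean of replicates 1 and 2 without doxycycline and 61.5 times with it, and it lay above the 3 parental libraries, at 56.6, 70.1 and 104 TPM. MEG3 behaved alike, with 2.13, 2.29 and 98.3 TPM uninduced and 2.597, 2.47 and 61.6 TPM induced, against 20.2, 25.04 and 29.2 TPM in parental cells. SNHG14 was at 1.12, 1.09 and 6.92 TPM uninduced and 0.984, 1.15 and 5.53 TPM induced. Replicates 1 and 2 of these RNAs lay below all parental libraries and replicate 3 above them.

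PVT1, TUG1, MALAT1 and EWSAT1 were also highest in replicate 3. PVT1 was at 5.22, 5.63 and 16.3 TPM uninduced and 7.38, 6.38 and 15.4 TPM induced, so that replicate 3 was level with parental cells (13.6, 17.003 and 15.7 TPM). TUG1 was at 16.6, 17.5 and 43.6 TPM uninduced and 8.74, 12.5 and 33.1 TPM induced, against 40.2, 36.3 and 40.6 TPM in parental cells. EWSAT1 was at 1.06, 0.799 and 3.07 TPM uninduced and 0.758, 1.16 and 2.85 TPM induced. DLEU2 and LINC02233 did not share this pattern. DLEU2 was at 8.37, 10.8 and 6.84 TPM uninduced and 6.52, 9.24 and 8.06 TPM induced.

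Both replicate 3 libraries lay above the other 4 for 7 of the 9 members tested, but so they did for 61.4% of the 14252 genes tested. A gap of more than 2 times was seen for 5 of the 9, against 19% of genes. These counts describe the values that chose the members, and nothing is read from them. The coefficient of variation of NEAT1 was 164% uninduced and 165% induced, where its median in untreated lines was 20.3%, and the median over all genes of at least 5 TPM was 25.4% and 24.4% in the sh908 groups against 6.30% to 17.4% in the lines. Among other genes, GAS5, a small nucleolar RNA host, was at 203, 275 and 699.6 TPM uninduced and 309.5, 257 and 771 TPM induced. ZFC3H1, a nuclear RNA decay factor, was at 5.32, 5.41 and 30.8 TPM uninduced and 3.35, 4.30 and 24.3 TPM induced. Of 11 nuclear RNA decay genes 8 were above in both replicate 3 libraries, of 16 paraspeckle proteins 7, of 12 nuclear speckle proteins 7 and of 12 imprinted genes 10, beside 61.1% of the 15051 genes with 1 TPM in any sh908 library. The part of the library difference in these values was not tested, and fewer cells with an RNA cannot be told apart from less RNA per cell in bulk samples.

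**Figure D4:**
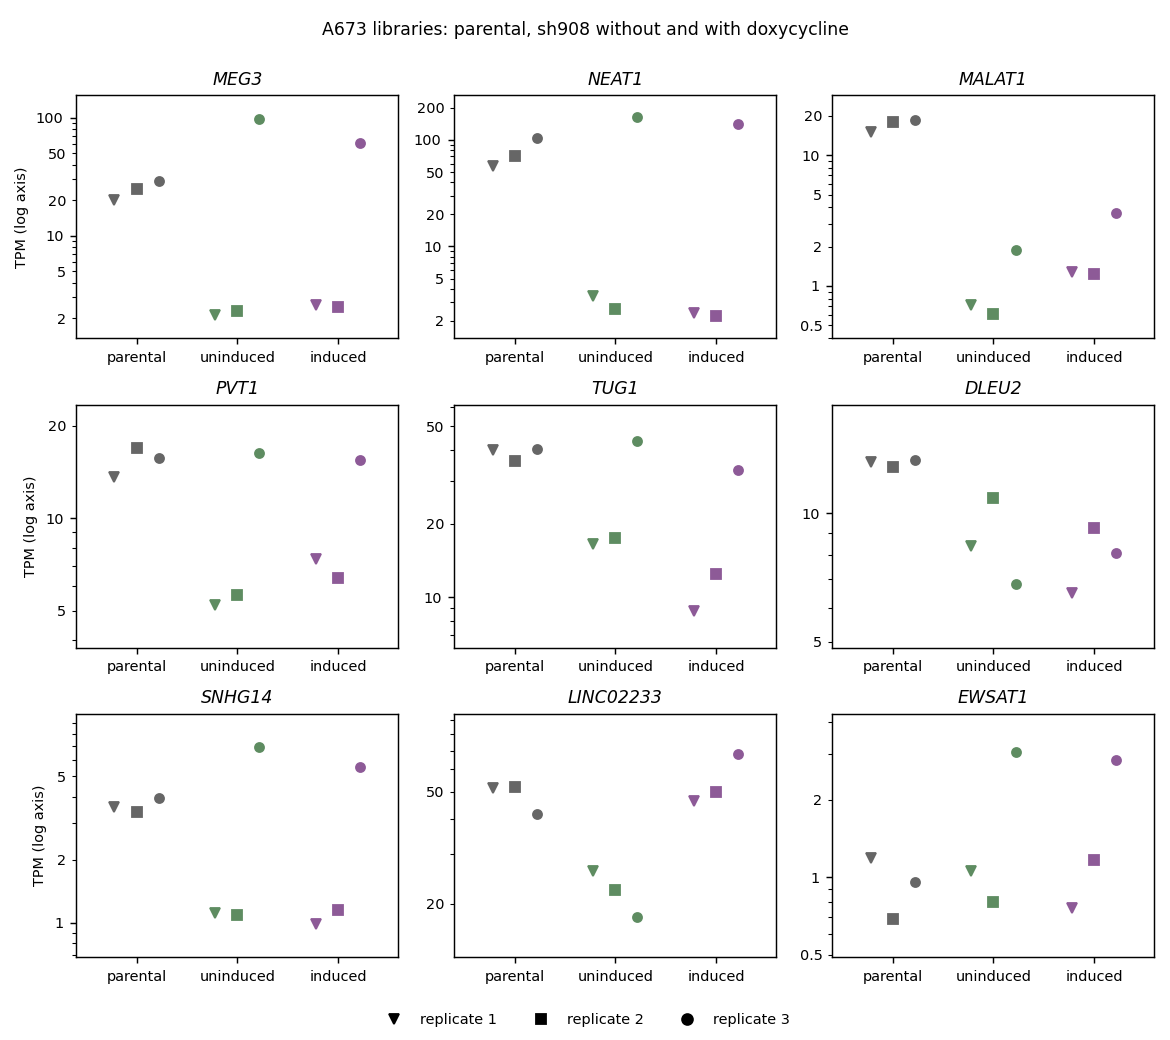
TPM (log axes) of 9 members in parental A673, uninduced sh908 and induced sh908 libraries; marker shape gives the replicate number. Replicate 3 is far above replicates 1 and 2 for NEAT1 and MEG3 in both sh908 groups, MALAT1 is below parental in all 6 sh908 libraries, and LINC02233 is higher in each induced library than in any uninduced one; H19 had no count in these libraries.

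Doxycycline was compared over the 3 induced and 3 uninduced libraries. LINC02233 was at 26.1, 22.3 and 17.97 TPM uninduced and 46.3, 49.9 and 67.8 TPM induced. The groups did not overlap, and the induced library was 1.77, 2.24 and 3.77 times its uninduced counterpart. This was the only one of the 9 members tested whose TPM did not overlap, where 3.65% of genes did not. Its log2 fold change was 1.20 (SE 0.37), not called by edgeR (adjusted p = 0.99997), and 1.27 (SE 0.24, adjusted p = 0.0546) with the replicate number as a block. MALAT1 was at 0.717, 0.614 and 1.89 TPM uninduced and 1.27, 1.23 and 3.61 TPM induced. The groups overlapped, but each induced library was 1.77, 2.004 and 1.91 times the uninduced one of the same number. MALAT1 had a log2 fold change of 0.97 (SE 0.43, edgeR adjusted p = 0.99997) without the block and 0.97 (SE 0.16, adjusted p = 0.0400) with it.

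Without the block edgeR called 0 of 14252 genes (0%), members included, with 94 genes at an unadjusted p under 0.05, and DESeq2 called 2. With the block 73 genes (0.512%) were called, and MALAT1 was the 1 member among them. That number of genes was 10 without pair 1, 7 without pair 2 and 167 (1.21%) without pair 3, and 28 without pair 3 and the block. The block rests on same-numbered libraries correlating at 0.782, 0.709 and 0.905 in their deviations from the group mean, a pattern set mostly by replicate 3 standing apart in both groups. MALAT1 lost the call when any pair was left out: the blocked adjusted p was 0.260 without pair 1, 0.261 without pair 2 and 0.0782 without pair 3. TUG1 was lower in each induced library, at 0.527, 0.711 and 0.761 times the uninduced one, with a blocked log2 fold change of -0.53 (SE 0.11, adjusted p = 0.0686). Without pair 3 it was -0.64 (SE 0.11, adjusted p = 0.0355), a call. That call needed the block, since without pair 3 and the block 28 of 13785 genes but 0 of the 9 members were called. NEAT1 was also lower in each induced library, at 0.696, 0.853 and 0.871 times the uninduced one. The other 6 members, among them NEAT1 at -0.20 (SE 0.10) and MEG3 at -0.20 (SE 0.20), had blocked adjusted p-values of 0.428 to 0.996. KCNN1, by TPM, was at 0.269, 0.389 and 0.431 times its uninduced level.

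**Figure D5:**
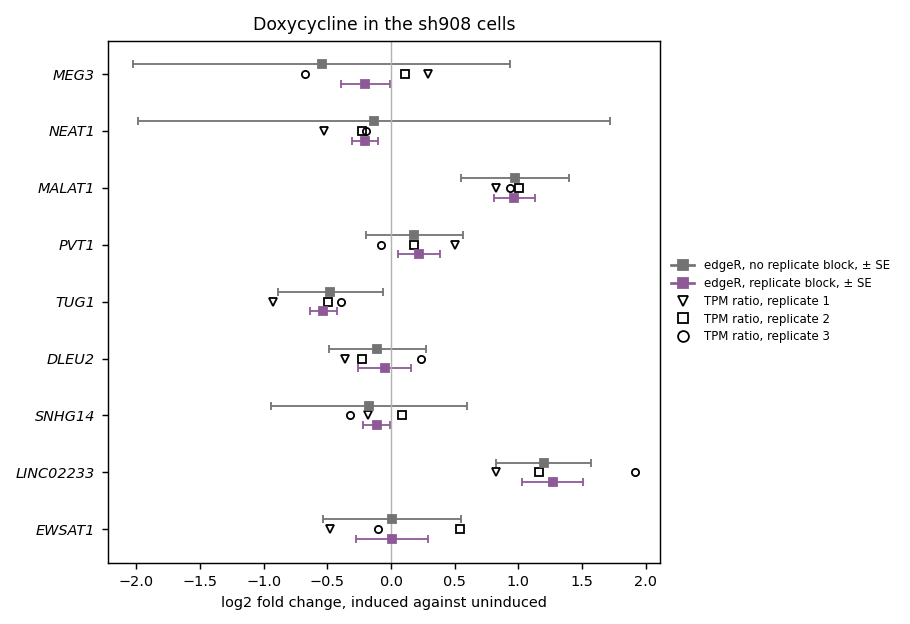
Log2 fold change of 9 members between induced and uninduced sh908 libraries: filled squares are edgeR estimates ± SE without (grey) and with (purple) the replicate block, open symbols the log2 TPM ratio of same-numbered libraries. MALAT1 and LINC02233 lie above 0 and TUG1 and NEAT1 below 0 in all 3 pairs, whereas the 3 ratios of MEG3, PVT1, DLEU2, SNHG14 and EWSAT1 fall on both sides.

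Uninduced sh908 cells were also compared with parental A673, which shares the uninduced libraries with the comparison above, so the 2 are not independent. MALAT1 was at 15.1, 17.96 and 18.6 TPM in parental cells, 16.05 times its mean of 1.07 TPM in uninduced cells and 25.9 times the mean of uninduced replicates 1 and 2. Every uninduced library was far below every parental one, and the induced cells had a mean of 2.04 TPM. These are levels in poly(A) libraries, and how fully that selection captured MALAT1 in each library was not measured. The log2 fold change was -3.66 (SE 0.29, edgeR adjusted p = 0.00470), and it was -3.72 (SE 0.26, adjusted p = 0.0243) with the replicate block. MALAT1 was the 1 member called of 9, where 15.1% of 15778 genes were called, and again the 1 member with the block, where 2.02% were. Parental levels and the spread between sh908 replicates were among the values that chose the members. The member calls and p-values of this comparison are therefore a description. Leaving out A673 replicate 1, 2 or 3 gave adjusted p-values of 0.0515, 0.0589 and 0.0559, as the count of called genes fell from 2388 to between 2 and 8.

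Parental libraries did not overlap uninduced ones in TPM for 3 of the 9 members, where 46.6% of genes did not. These were MALAT1, DLEU2 and LINC02233, all lower by TPM in uninduced cells. Over 9056 genes of at least 5 TPM in both groups the median log2 TPM ratio was -0.35, and fitted log2 fold changes lay a median of 0.45 above the TPM ratios. DLEU2 had a log2 fold change in the other direction from counts, 0.17 (SE 0.33, edgeR adjusted p = 0.759), and -0.093 with an offset for effective length. LINC02233 was 2.18 times higher in parental cells by mean TPM. From counts it had a log2 fold change of -0.40 (SE 0.36, edgeR adjusted p = 0.477), or -0.63 (SE 0.35, adjusted p = 0.256) with an offset for effective length. EWSAT1 had 1.13 (SE 0.45, adjusted p = 0.134). When replicate 3 of both groups was left out, the log2 fold changes were -3.68 for NEAT1, -3.98 for MALAT1, -2.37 for MEG3, -1.02 for SNHG14, -0.83 for PVT1 and -0.54 for TUG1. In that fit edgeR called 6 of the 9 members and 57.5% of 15635 genes. The spread between these replicates chose the members, so this count and the next are a description from which nothing is read. Without uninduced replicate 3 alone, 7 of the 9 members and 62.3% of 16379 genes were called, the added member being DLEU2, higher at 0.47. With all libraries NEAT1 had -0.38 (SE 1.27) and MEG3 0.44 (SE 1.11), so that both values rest on replicate 3.

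The lists of related genes are read beside the 14.4% of all genes called between the tumour types. In the hypoxia response 0 rose and 6 fell of 12 in the Ewing sarcoma lines, with a median log2 fold change of -1.30 against -0.06 over all genes. NDRG1 fell by 5.56 and ADM by 3.49 on the log2 scale, and SLC2A1, a glucose transporter, fell by 2.10. Of 16 paraspeckle proteins 1 rose and 0 fell: SFPQ, which binds NEAT1, was at 492 ± 51.3 TPM (SD, n = 7 lines) against 285 ± 39.4 TPM (n = 6 lines). None of 12 nuclear speckle proteins, 11 nuclear RNA decay genes, 14 small nucleolar RNA host genes or 14 neighbours of members passed in edgeR. CHASERR was the 1 of 10 other mainly nuclear noncoding RNAs that rose (1.04), and CYTOR the 1 of 6 mainly cytoplasmic ones that fell (-2.06). Of 17 imprinted genes NNAT rose and MKRN3 fell, and of 12 p53 targets CDKN1A and PLK3 fell.

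With doxycycline, no listed gene passed edgeR without the block; with it, PHLDA2, an imprinted gene, rose by 0.58 and CDKN1A, a p53 target and cell cycle inhibitor, rose by 0.72 on the log2 scale. Without pair 3 and with the block both were called again, at 0.63 and 0.72, as was NDRG1 of the hypoxia list at 0.89. Without pair 3 and without the block no listed gene was called (edgeR adjusted p = 0.0657 for PHLDA2 and 0.0629 for CDKN1A). In uninduced against parental cells the lists are read beside the 15.1% of all genes called, a count that fell to 2 to 8 genes without 1 A673 library and rose to 10202 without uninduced replicate 3. There 4 of 14 small nucleolar RNA host genes fell and 1 rose. SNHG12 was at 55.7 TPM in parental and 6.10 TPM in uninduced cells (log2 fold change -3.01), the uninduced libraries being at 3.22, 2.48 and 12.6 TPM. Without replicate 3 of both groups its log2 fold change was -3.68. SNHG1 was at 285 and 86.4 TPM (-1.36). Of 16 imprinted genes 4 rose and 2 fell, among them IGF2 (2.70, from 0.0717 to 0.342 TPM), CDKN1C (2.22) and MEST (-1.38). Without replicate 3 of both groups IGF2 had 3.34. Of 15 neighbours of members IGF2, SNURF (1.37) and SNRPN (1.29) rose and FRMD8, which lies beside NEAT1, fell (-1.01). The 3 that rose are also among the 4 imprinted genes that rose, so the 2 lists share them. By TPM the log2 ratio was only 0.34 for SNURF and 0.82 for SNRPN. The speckle proteins PNN (-0.83) and RBM25 (-0.53) fell, as did HOTAIR (-2.36), 1 of 11 nuclear noncoding RNAs, and MIR22HG (-3.10), 1 of 6 cytoplasmic ones. No paraspeckle protein and no decay gene passed, 3 of 11 hypoxia genes rose (EGLN3, NDRG1 and BNIP3) and 2 of 12 p53 targets rose (CDKN1A and GDF15). Over all genes the median log2 fold change was 0.01, and that of the host genes -0.28 and that of the imprinted genes 0.58.

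These list counts changed when replicate 3 of both groups was left out, where 57.5% of all genes were called, with a median of -0.04 on the log2 scale. Of 10 mainly nuclear noncoding RNAs 6 fell and 1 rose, with a median of -0.82, and of 14 host genes 7 fell and 4 rose. Of 12 speckle proteins 5 fell and 1 rose, of 16 paraspeckle proteins 3 fell and 6 rose, and of 11 decay genes 3 fell and 3 rose. Imprinted genes had 4 lower and 5 higher of 14, with a median of 0.08, and neighbours of members 3 lower and 6 higher of 15. The hypoxia list had 3 lower and 3 higher of 11, the p53 targets 3 lower and 4 higher of 12, and the cytoplasmic noncoding RNAs 2 lower and 1 higher of 6.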

How the data were processed

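Poly(A) RNA was extracted with NucleoSpin RNA Plus and made into TruSeq Stranded mRNA libraries, per the labels' protocols. The submitters' processing notes name fastp 0.19.5 and kallisto 0.46.2 and the builds hg38 and GRCh38.p14. The authors deposited a table per library with an estimated count and a TPM (length-scaled transcript abundance) for each of 177816 transcripts. The members and gene lists were chosen with earlier results of these data known.

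Transcripts were joined to genes through RefSeq accessions (GRCh38.p14), which matched 95.6% of transcripts, and the unmatched ones held 0.915% to 1.60% of a library's counts. Counts and TPM were summed per gene, and counts were rounded per library. For tumour types the 3 libraries of a line were summed, giving 7 against 6 lines. Genes passed edgeR 4.0.16 filterByExpr, libraries were scaled by TMM (trimmed means of M values), and a robust quasi-likelihood test was adjusted by Benjamini-Hochberg over all genes tested. Called means an adjusted p under 0.05. Fits were tested on simulated data. DESeq2 1.42.0, RLE scaling, no filter, a length offset, the replicate block and leaving out libraries or lines were alternatives. Named were all members, 2 neighbours on each side, 3 genes most alike over 13 lines, and the called genes of each list with the largest changes.

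Same-numbered uninduced and induced libraries deviated together (r 0.782, 0.709 and 0.905), so the blocked values stand beside the unblocked ones. Replicates 1 and 2 also did so across numbers. The r was 0.708 for uninduced 1 with induced 2 and 0.640 for uninduced 2 with induced 1. The r values therefore set replicate 3 apart but hardly pair replicates 1 and 2 by number. Between parental and uninduced libraries r was -0.06, 0.16 and 0.22, and between lines 28 of 126 same-numbered pairs passed 0.1, so the numbers did not pair those. Promoter windows of 8 of the 9 members looked for were found in the RefSeq table. A permutation test planned for the NEAT1 long transcript share is not printed, since in the Ewing sarcoma lines that share tended to rise as the level that chose the gene fell.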

Additional observations from a re-analysis of the deposited data

Results flagged for a closer look

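Among the 20 groups of line means examined, 2 members had a line far from the others. MEG3 in G292, at 578 TPM, stood apart from the other osteosarcoma lines, with a gap to the next line that took up 0.986 of the whole range on the log2(TPM + 1) scale. LINC02233 in U2OS stood apart from the other osteosarcoma lines, with a gap of 1 of the range, but this was 1 estimated count against none, or 0.118 TPM. The flag was set so that chance would give it in about 1 in 20 groups. Line levels chose these members, so that rate does not apply to them and nothing is read from the number of flags.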

How the results depend on the processing

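Leaving out lines or libraries moved the count of called members between 2 and 3 for the tumour types, 0 and 1 for doxycycline, and 0 and 7 for uninduced against parental cells, where the genes called in all went from 2 of 16028 to 10202 of 16379. The difference in the NEAT1 long transcript share ran from 1.06 to 3.91 points; without replicate 2 it was 3.90 points, and as a share of estimated counts 12.2 points. With the replicate block 9 members and 16743 of 23796 genes were called between the tumour types, in a fit where libraries of 1 line count as replicates, and MEG3 (2.44) and SNHG14 (0.38) changed sign; 1 was called for doxycycline. In uninduced against parental cells the replicate block turned MEG3 to -1.10 and a length offset turned DLEU2 to -0.093. The counts without replicate 3 of both groups were 1 (doxycycline, replicate block, 167 of 13785 genes) and 6 (parental, 8250 of 15635 genes with the block and 8986 without, both chosen after seeing the data). The cause of these shifts was not tested.

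The direction of some log2 fold changes turned when 1 line, library or pair was left out. For the tumour types they ran from -4.57 to 5.77 for MEG3, -0.17 to 0.32 for PVT1, -0.0010 to 0.15 for TUG1, -0.072 to 0.57 for DLEU2 and -0.79 to 0.095 for SNHG14. For doxycycline they ran from -2.71 to 2.41 for MEG3, -3.86 to 3.46 for NEAT1, -0.061 to 0.60 for PVT1, -0.39 to 0.18 for DLEU2, -1.08 to 0.88 for SNHG14 and -0.44 to 0.50 for EWSAT1. For uninduced against parental cells they ran from -2.48 to 0.96 for MEG3, -3.93 to 0.17 for NEAT1, -0.12 to 0.47 for DLEU2 and -1.07 to 0.29 for SNHG14. Blocked fits without pair 1, 2 or 3 gave MEG3 -0.36, -0.15 and -2.36 there (-2.37 unblocked without pair 3), and DLEU2 -0.043 without pair 2. For doxycycline MEG3 had 0.24 blocked and 0.25 unblocked without pair 3, and EWSAT1 had -0.19 blocked without pair 2. Leaving out uninduced replicate 2 gave DLEU2 0.092 for doxycycline and -0.018 against parental cells. LINC02233 and EWSAT1 between tumour types, and MALAT1 in both A673 comparisons, kept their direction under every alternative run. H19, at under 4 TPM in every line, and the low NEAT1 counts of SKES1 and EW24 limit what depth can show.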
